A study of Mus musculus with 6 samples.

Results

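Gata4, Gata6, Sox7, Sox17 and Hnf4a encode transcription factors of the endoderm lineages, and their loci were examined in undifferentiated mouse embryonic stem cells (mESCs). The 5 genes were chosen by name as endoderm regulators that are silent or low in such cells. They are 5 of the 21774 protein-coding genes with a transcription start site (TSS) in the RefSeq annotation of GRCm38, the assembly that mm10 names. For each gene, ATAC-seq peaks were listed within 1 kb of any RefSeq TSS and in the locus, that is, the gene span plus 50 kb on each side. The 5 loci held 16 of the 41014 peaks. RNA levels of the 5 genes were not analysed here, so that they are silent or low is a premise of the choice and not a result.

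ATAC-seq marks accessible chromatin, because the Tn5 transposase cuts and tags DNA that is not packed in nucleosomes. The study examined how ZBTB21, a zinc finger protein, affects the three-dimensional folding of chromatin. Its ATAC-seq samples are 2 replicates of untreated V6.5 mESCs, a mouse ES cell line, and 2 replicates each of mESCs with a ZBTB21 degron before (0 h) and 6 h into ZBTB21 degradation, with a spike-in. The degron cells were not analysed here. The labels describe V6.5 culture on irradiated mouse embryonic fibroblasts with leukaemia inhibiting factor, whereas the study's methods name no feeder cells and list CHIR99021, a GSK3 inhibitor, and PD0325901, a MEK inhibitor, in the medium. Which of these applied to the ATAC-seq samples is not given. The labels also attach to every sample, the untreated ones included, a treatment text about doxycycline given to degron cells.

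The untreated condition is represented by 1 peak list with no values per replicate. Neither the depth of the libraries nor the spread between replicates could be read from it, so the values below are descriptions without a test, and a place without a listed peak is not shown to be closed. Each peak has a score between 540 and 953 (median 696), and the median width was 547 bp. The list was checked against markers of the labelled cell type. Of 10 ES cell marker genes, 5 (50%) had a promoter peak, one within 1 kb of a TSS, namely Pou5f1, Nanog, Zfp42, Prdm14 and Tbx3, while Sox2, Klf4, Klf2, Esrrb and Tfcp2l1 had none there. Of 8 fibroblast marker genes, which the feeder cells would express, 2 (25%) had one, Thy1 and Pdgfrb. The Wilson 95% confidence intervals, 23.7 to 76.3% and 7.15 to 59.1%, overlapped, and both included the share over all protein-coding genes, 29.9%. Of the fibroblast markers, Thy1, Pdgfrb and the collagen genes Col1a1, Col1a2 and Col3a1 had from 1 to 7 peaks in their loci, and Twist1, Prrx1 and Lum had none. Peaks per 100 kb of locus ranged from 0.949 to 9.55 (median 6.08) over the ES cell markers and from 0 to 5.99 (median 1.43) over the fibroblast markers. Over all protein-coding genes the median was 2.59, and 18.1% of these genes had no peak in their locus. The part of feeder cells in the peak list was not tested.

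The first endoderm of the mouse embryo, the primitive endoderm, separates from the pluripotent epiblast before implantation and forms the parietal and visceral endoderm of the yolk sac. GATA6 is required for this choice, and GATA4, SOX17 and SOX7 follow it, while HNF4A acts in the visceral endoderm and later in liver and gut. SOX17 is in addition a factor of the definitive endoderm, which forms at gastrulation. All 5 proteins bind DNA. GATA4 and GATA6 do so through zinc fingers and recognise GATA sequences, SOX7 and SOX17 through an HMG box, and HNF4A is a nuclear receptor.

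None of the 5 genes had an ATAC-seq peak at its promoter. Over the 14 annotated start positions of the 5 genes, 0 peaks lay within 1 kb, whereas 6510 of all protein-coding genes (29.9%) had such a peak. With 5 genes, 0 of 5 has a Wilson 95% confidence interval of 0 to 43.4%, which includes the share over all genes. The interval treats the genes as independent random draws, which genes chosen by name are not. The nearest peak lay 6.71 kb from the TSS of Sox7, 11.7 kb from a TSS of Hnf4a, 41.8 kb from one of Gata4, 42.7 kb from one of Gata6 and 46.5 kb from one of Sox17. The median over all protein-coding genes was 8.70 kb, so Sox7 lay nearer than the median gene and the other 4 farther.

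Each of the 5 loci held at least 1 peak, as did those of 17833 protein-coding genes (81.9%). With flanks of 25 kb the Gata4 and Sox17 loci held none (3 of 5 with a peak, beside 75.2% of all genes), and with scores above the median those of Gata4, Sox7 and Sox17 held none (2 of 5, beside 72.3%). Sox17 had 1 peak, Gata4, Gata6 and Sox7 had 2 each and Hnf4a had 9, beside a median of 4 peaks per locus over all genes. A peak inside the gene itself was present in 1 of the 5, Hnf4a, beside 10792 of all genes (49.6%). Since loci differ in length, peaks were counted per 100 kb. This density was 0.939 for Sox17, 1.16 for Gata4, 1.5 for Gata6, 1.87 for Sox7 and 5.42 for Hnf4a. The interquartile range over all genes was 0.867 to 4.78 around a median of 2.59, so Hnf4a lay above that range and the other 4 in its lower part.

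**Figure D1:**
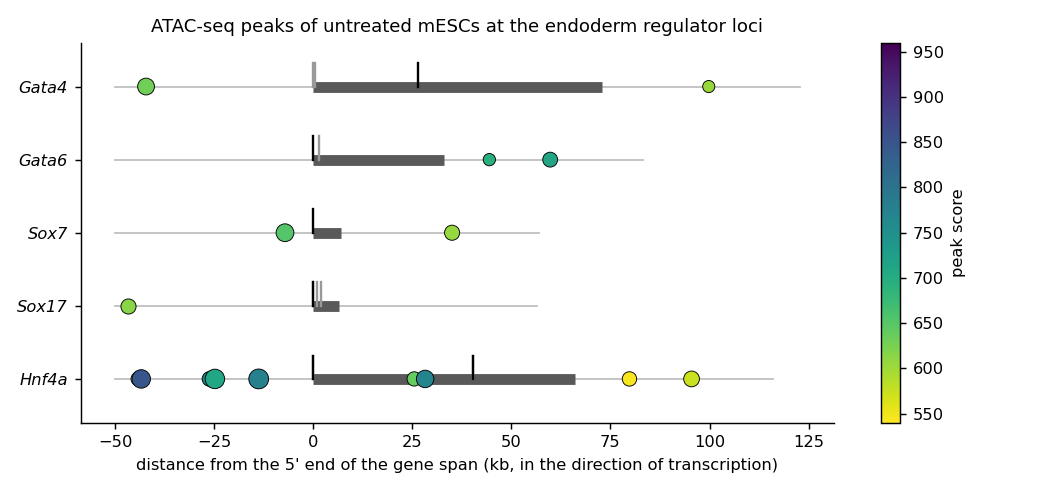
ATAC-seq peaks of untreated mESCs at the 5 loci, plotted by distance in kb from the 5′ end of each gene span (dark bar) along the direction of transcription, with thin lines for the 50 kb on each side. Circles are peaks, larger when wider and coloured by score, and vertical ticks are start positions, black when curated by RefSeq and grey when predicted; no circle lies at a tick, and 9 of the 16 peaks belong to Hnf4a.

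**Figure D2:**
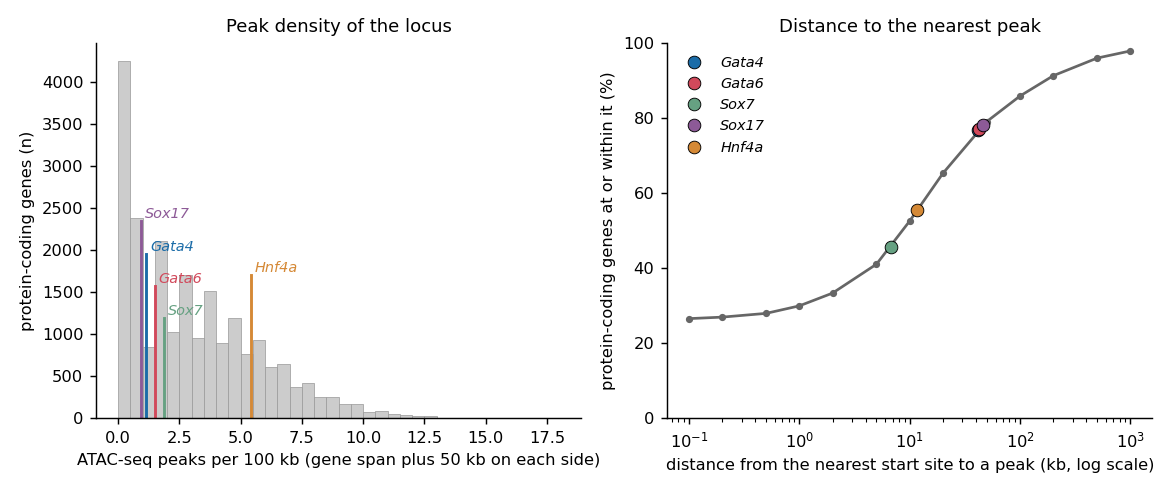
Left, histogram of peaks per 100 kb of locus over 21774 protein-coding genes, with a coloured line for each of the 5 genes (the height of the lines has no meaning). Right, cumulative percentage of genes by the distance from a start site to the nearest peak in kb, on a log axis, with the 5 genes as circles; Gata4, Gata6 and Sox17 lie together between 41.8 and 46.5 kb, and the circle of Gata4 is covered by that of Gata6.

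Gata4 (GeneID 14463), which acts in primitive endoderm and heart, lies on the minus strand of chromosome 14 from 63198914 to 63271712 (mm10), a span of 72.8 kb. RefSeq gives it 1 curated start position, 63245271, and 2 predicted ones upstream, 63271133 and 63271712. The curated TSS was 68.3 kb from the nearest peak. The gene and all its start positions lay in a stretch of 141 kb without a peak, from 63172082 to 63313524. Such a stretch, for each gene the longest around any start position, was shorter around 69.3% of all genes (median 59.7 kb). One flanking peak, 63171723 to 63172082, was 360 bp wide with a score of 605 and lay downstream of the gene in an intron of Fdft1, which encodes squalene synthase. The other, 63313524 to 63314216, was 693 bp wide with a score of 631 and lay upstream in an intron of Gm4151, an RNA gene. Both scores were below the list's median. Of the neighbouring genes whose TSS lies in the locus, Fdft1 and Neil2 had no promoter peak, while Gm4151 had one at another of its start positions, from 63338363, that lay outside the 50 kb limit, 66.7 kb from Gata4. The upstream peak is shown because it was the nearest to a Gata4 TSS (300 bases about its middle, GRCm38, plus strand, 5′ to 3′, chr14:63313720-63314019). Nothing is in capitals, since no searched motif occurred in it.
Gata4 upstream peak: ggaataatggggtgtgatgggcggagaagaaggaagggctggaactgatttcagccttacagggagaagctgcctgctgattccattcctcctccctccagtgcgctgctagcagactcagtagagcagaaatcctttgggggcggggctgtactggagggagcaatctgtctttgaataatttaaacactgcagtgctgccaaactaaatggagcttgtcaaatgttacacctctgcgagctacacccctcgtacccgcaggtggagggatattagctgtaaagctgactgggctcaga

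Sox7 (GeneID 20680), an HMG box factor of the primitive and parietal endoderm, lies on the plus strand of the same chromosome from 63943706 to 63950732, with 1 start position. Of the 5 genes it had the peak nearest to a TSS. This peak, 63936216 to 63936991, was intergenic, 776 bp wide (wider than 82.6% of the list) and had a score of 652 (higher than 34.6% of the list). The other peak of the locus, 63978482 to 63979040, lay 34.8 kb downstream of the TSS in an intron of 4930578I06Rik. It was 559 bp wide with a score of 607. The stretch without a peak between them measured 41.5 kb, shorter than the median over all genes. No neighbour with a TSS in the locus, 4930578I06Rik, Gm36410 and Rp1l1, had a promoter peak.

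Both Sox7 peaks held an octamer, the 8 bases ATGCAAAT or their reverse complement. POU factors such as OCT4 are known to bind this sequence. It occurred in 2 of the 16 peaks of the 5 loci, both at Sox7, and in 2.85% of all peaks over windows of the same length. The upstream peak also held AGATAA, the GATA sequence searched, on the plus strand, and the downstream peak held GGGNGTGG, a KLF sequence, at 2 places. The middle 300 bases of both peaks are printed to show these matches, which are in capitals (GRCm38, plus strand, 5′ to 3′). They are at chr14:63936454-63936753 and chr14:63978611-63978910. A match is a run of letters and was not tested as a binding site.
Sox7 upstream peak: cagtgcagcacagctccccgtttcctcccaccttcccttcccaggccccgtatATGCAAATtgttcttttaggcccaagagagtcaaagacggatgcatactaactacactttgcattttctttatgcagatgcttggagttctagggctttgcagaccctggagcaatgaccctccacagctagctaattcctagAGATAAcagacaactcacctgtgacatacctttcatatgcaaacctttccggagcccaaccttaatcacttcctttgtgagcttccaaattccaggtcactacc
Sox7 downstream peak: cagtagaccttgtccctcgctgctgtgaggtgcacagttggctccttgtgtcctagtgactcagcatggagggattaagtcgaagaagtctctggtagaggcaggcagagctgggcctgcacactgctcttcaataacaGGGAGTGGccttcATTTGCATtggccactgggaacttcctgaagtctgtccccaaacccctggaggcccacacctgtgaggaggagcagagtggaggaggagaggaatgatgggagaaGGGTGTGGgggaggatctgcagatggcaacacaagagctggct

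Sox17 (GeneID 20671), which acts in primitive and definitive endoderm, lies on the minus strand of chromosome 1 from 4490928 to 4497426 and has 4 start positions within its 6.50 kb. The curated one, 4497354, serves 5 of its 9 transcripts. Sox17 had the lowest peak density of the 5 genes, and 27.1% of all protein-coding genes had a lower one. Its 1 peak, 4543892 to 4544452, was intergenic, 46.5 kb upstream, 561 bp wide and scored 614, higher than 22.0% of the list. The next peak on the other side of the gene was 68.2 kb from it, and the stretch without a peak around the gene measured 121 kb, longer than for 66% of genes. The printed bases are the middle of that single peak (GRCm38, plus strand, 5′ to 3′, chr1:4544022-4544321), and no searched motif occurred in them.
Sox17 upstream peak: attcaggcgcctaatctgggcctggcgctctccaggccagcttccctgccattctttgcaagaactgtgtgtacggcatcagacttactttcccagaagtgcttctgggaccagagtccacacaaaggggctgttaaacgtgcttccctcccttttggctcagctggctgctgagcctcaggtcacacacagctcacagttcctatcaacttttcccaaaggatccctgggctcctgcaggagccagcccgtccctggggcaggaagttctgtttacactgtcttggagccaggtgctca

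Hnf4a (GeneID 15378), a nuclear receptor of visceral endoderm and liver, lies on the plus strand of chromosome 2 from 163506811 to 163572907. It is transcribed from a pair of promoters, with curated start positions at 163506857 and 163547155. Peaks covered 3.66% of its locus, beside 0.527 to 1.25% in the other 4 loci, and its density was higher than that of 80.3% of all genes. The 9 scores ran from 544 to 847 with a median of 709. The lowest of them was close to the list's minimum and the highest above 94.5% of the list, while the 7 peaks of the other 4 loci scored between 605 and 713.

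Of these 9 peaks, 5 lay upstream of the gene, 2 in an intron and 2 downstream. The intronic peaks, 163532058 to 163532560 (score 640) and 163534691 to 163535439 (score 769), lay between the promoters, 14.6 and 11.7 kb upstream of the second one, where the antisense RNA gene Hnf4aos also runs. The second of them was the nearest to any Hnf4a TSS. The peak of highest score at the 5 loci, 163463015 to 163463852 (838 bp, score 847), was intergenic and 43.0 kb upstream. Next to it lay a weaker peak, 163462336 to 163462780, with a score of 596. Nearer to the gene, 25.9 and 24.3 kb upstream, were intergenic peaks of score 774 and 709, the second of them 931 bp wide. The widest, 163492594 to 163493554 (961 bp, score 778), lay 13.3 kb upstream in a coding exon of R3hdml, 0.276 kb from that gene's TSS. Downstream of the gene, the intergenic peak 163586367 to 163586874 had the lowest score at the 5 loci, 544. Farther downstream a peak of score 574, 163601982 to 163602590, lay at the TSS of Ttpal. The R3hdml and Ttpal peaks were the 2 of the 16 (12.5%) within 1 kb of any gene's TSS, beside 20% of the whole list. The promoters of Fitm2 and Hnf4aos had no peak.

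The sequences at Hnf4a are printed for the intronic peak nearest to a TSS and the peak of highest score (middle 300 bases) and for the 250 bases before each curated start position, which had no peak (RefSeq, GRCm38.p6, plus strand, 5′ to 3′). Capitals mark a motif match in the peaks and CpG dinucleotides in the promoters. They lie at chr2:163534915-163535214, chr2:163463284-163463583, chr2:163506607-163506856 and chr2:163546905-163547154. The peak of highest score held TGACCTTG, the reverse complement of the ESRRB sequence CAAGGTCA, which occurred in 1 of the 16 peaks and in 3.61% of all peaks. Of the middle 300 bases of that peak, 32.7% are marked as repeats in the assembly. Whether the match lies in a repeat was not examined. The promoters held 3 and 4 CpGs, with an observed over expected CpG ratio of 0.183 and 0.193, higher than for 27.3% and 28.8% of 32851 promoters (median 0.373). Their GC content was 51.2% and 57.6% (median 52.4%). The upstream promoter held AGATAA once, as did 9.99% of promoters, and the other held none of the 6 motifs. Of the 5 genes, 1 (Hnf4a) matched the RefSeq promoter table, and Gata4, Gata6, Sox7 and Sox17 did not.
Hnf4a intronic peak: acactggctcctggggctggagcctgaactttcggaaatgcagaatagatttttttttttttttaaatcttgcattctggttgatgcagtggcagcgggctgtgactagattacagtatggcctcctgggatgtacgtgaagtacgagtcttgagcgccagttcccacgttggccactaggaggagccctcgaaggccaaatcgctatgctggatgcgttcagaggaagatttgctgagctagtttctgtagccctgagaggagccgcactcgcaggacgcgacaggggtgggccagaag
Hnf4a peak of highest score: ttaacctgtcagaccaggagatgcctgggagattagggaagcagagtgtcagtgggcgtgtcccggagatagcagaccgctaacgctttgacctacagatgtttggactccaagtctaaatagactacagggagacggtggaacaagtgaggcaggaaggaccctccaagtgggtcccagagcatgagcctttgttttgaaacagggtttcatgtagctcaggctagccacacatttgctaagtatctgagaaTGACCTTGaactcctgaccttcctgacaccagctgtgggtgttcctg
Hnf4a upstream promoter: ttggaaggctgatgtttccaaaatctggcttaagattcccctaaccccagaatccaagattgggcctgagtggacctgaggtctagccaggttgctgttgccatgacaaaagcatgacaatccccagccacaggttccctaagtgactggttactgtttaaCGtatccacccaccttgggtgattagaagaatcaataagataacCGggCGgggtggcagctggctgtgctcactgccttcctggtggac
Hnf4a downstream promoter: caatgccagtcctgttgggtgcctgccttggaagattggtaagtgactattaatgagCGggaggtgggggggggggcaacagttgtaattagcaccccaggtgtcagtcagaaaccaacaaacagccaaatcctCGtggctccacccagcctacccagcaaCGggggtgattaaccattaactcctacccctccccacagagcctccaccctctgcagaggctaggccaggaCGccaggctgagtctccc

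Gata6 (GeneID 14465), the GATA factor required for primitive endoderm, lies on the plus strand of chromosome 18 from 11052510 to 11085636. It has a curated start position at 11052510 and a predicted one at 11054036. The stretch without a peak around it was the longest of the 5 genes, 193 kb from 10903968 to 11096784, and longer than for 74.3% of all genes. Both peaks of the locus lay downstream and were intergenic. The first, 11096784 to 11097153, was 370 bp wide with a score of 693. The second, 11112043 to 11112584, was 542 bp wide with a score of 713. Both scores were near the list's median, and the first peak held AGATAA once. No peak lay at the promoters of Gata6os, the antisense RNA gene at the Gata6 start, or of 9130001E16Rik. The next peak beyond the locus was 126 kb from the gene.

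The 16 peaks as a group had a median width of 560 bp (360 to 961 bp) and a median score of 646 (544 to 847), beside 547 bp and 696 over the list. Scores above the list's median were found for 6 of the 16, of which 5 were at Hnf4a and 1 at Gata6. All peaks of Gata4, Sox7 and Sox17 scored below it. By position, 9 were intergenic, 5 lay in an intron and 2 in an exon. The shares of these classes over the whole list were not computed, so the counts are a description only. Peaks just outside the 50 kb limit lay between 55.0 kb (Hnf4a) and 126 kb (Gata6) from the gene.

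**Figure D3:**
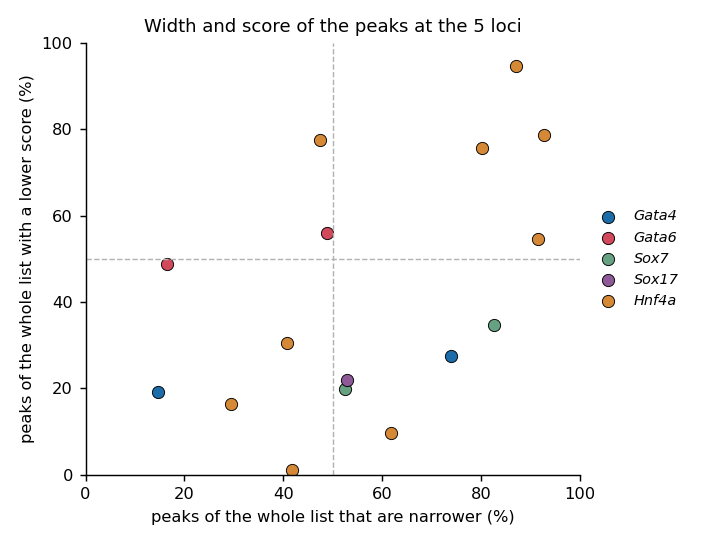
Each of the 16 peaks plotted by the percentage of the whole list that is narrower (x axis) and that has a lower score (y axis), coloured by gene, with dashed lines at 50%. Of the 6 peaks above the horizontal line, 5 are those of Hnf4a and 1 is of Gata6.

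Base composition of the 16 peaks was compared with that of all 41000 peaks on assembled chromosomes, in 300 bases about each middle. Median GC content was 53.3% at the 5 loci (45.3 to 71.3%) and 52.7% over the list. The observed over expected CpG ratio had a median of 0.279 and 0.248, respectively. The peak at the Ttpal TSS was the highest in both, with 71.3% GC and a ratio of 0.872, whereas the Gata6 peak of score 713 was the lowest in GC. Bases marked as repeats had a median share of 14.7% at the 5 loci (0 to 50.7%) and 8.33% over the list (0 to 100%). Of the 6 motifs searched on both strands, at least 1 occurred in 7 of the 16 peaks and in 45.5% of all peaks. AGATAA, the GATA sequence, was present in 3 peaks, 1 each at Gata6, Sox7 and Hnf4a, and in 9.29% of all peaks. GGGNGTGG, bound by KLF factors, was in 4 peaks, 1 each at Gata4 and Sox7 and 2 at Hnf4a, and in 23.3% of the list. ACAATG, bound by SOX factors, was in 0 of the 16 peaks and in 15.1% of the list, and the STAT3 sequence TTCCNGGAA in 0 and in 1.47%.

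The study's list of 1827 ZBTB21 ChIP-seq peaks of mESCs was laid over the same loci. None of the 5 loci held a ZBTB21 peak, whereas those of 4764 protein-coding genes (21.9%) did. Hnf4a was the nearest to one, 71.7 kb, at the TSS of Serinc3, and 26.3% of all genes lay nearer. Gata4 and Sox7 had the same nearest ZBTB21 peak, at the TSS of Xkr6 between the genes, 334 kb from Gata4 and 337 kb from Sox7. The median distance over all genes was 280 kb. Gata6 lay 1094 kb from a ZBTB21 peak at the TSS of Thoc1, and Sox17 lay 9162 kb from one at the TSS of Lactb2, farther than 98.5% of genes. The Xkr6 and Serinc3 sites overlapped ATAC-seq peaks of high score, 862 and 878, and the Thoc1 and Lactb2 sites overlapped none.

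Gata4 and Sox7 lay in ZBTB21-responsive loops and Hnf4a overlapped one, and Gata6 and Sox17 did not. Chromatin loops join distant anchors, here of 25 kb. From loops longer than 500 kb, the study lists 500 as ZBTB21-responsive and 500 as less-responsive. By definition the responsive ones hold a ZBTB21 peak and reduced cohesin after ZBTB21 loss, and the less-responsive ones hold neither. The study ranked loops by ZBTB21 signal plus cohesin change at ATAC-seq peaks within each, and took the top and bottom 500. A responsive loop overlapped 3 of the 5 genes, beside 3458 of all genes (15.9%), and a less-responsive one overlapped 0 of the 5, beside 1359 of all genes (6.24%). Because Gata4 and Sox7 are neighbours whose loops overlap, these 3 genes are not independent of each other. The nearest responsive loop was 23.8 Mb from Gata6 and 9.28 Mb from Sox17, and the nearest less-responsive loop was 2.25 and 0.678 Mb away.

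Gata4 overlapped 2 responsive loops that shared their right anchor. The larger covered the whole gene, and the smaller all of it but its 3′ end. The larger, 63050001 to 63800000 on chromosome 14, held 27 ATAC-seq peaks over 750 kb, or 3.6 per 100 kb. The smaller, 63200001 to 63800000, held 24 over 600 kb, or 4 per 100 kb, and its first anchor overlapped the 3′ part of Gata4 but none of its start positions. Both loops were thus denser in peaks than the Gata4 locus, with 1.16 per 100 kb. The Sox7 loop, 63350001 to 64050000, held 25 peaks over 700 kb, or 3.57 per 100 kb, and Sox7 lay outside its anchors. The 1 ZBTB21 peak in each of these 3 loops was the same, at Xkr6. Over the 500 responsive loops the median was 3.04 peaks per 100 kb (interquartile range 2.07 to 3.88). ATAC-seq peaks within each loop entered the ranking that chose responsive loops, so these densities are not independent of that choice. The 3 loops on chromosome 14 overlap and share most of their peaks.

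Hnf4a lay partly in its loop, 163525001 to 164350000 on chromosome 2, and was cut by its first anchor. This anchor, 163525001 to 163550000, held both intronic peaks and 2 of the 4 Hnf4a start positions, those of the downstream promoter, while the upstream promoter lay outside the loop. The loop held 20 peaks over 825 kb, 2.42 per 100 kb, which was fewer than the 5.42 of the Hnf4a locus. It held 2 ZBTB21 peaks, 1 at Serinc3 and 1 that was 9.93 kb from the TSS of Tomm34 and overlapped no ATAC-seq peak. Of the 23 protein-coding genes overlapping the loop, 6 had a promoter peak, beside 1 of 9 and 1 of 6 in the Gata4 loops, 1 of 9 in the Sox7 loop and 29.9% over all genes. The Gata4 and Sox7 loops overlap, and a gene in the part they share is counted in each, so their counts are not separate.

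**Figure D4:**
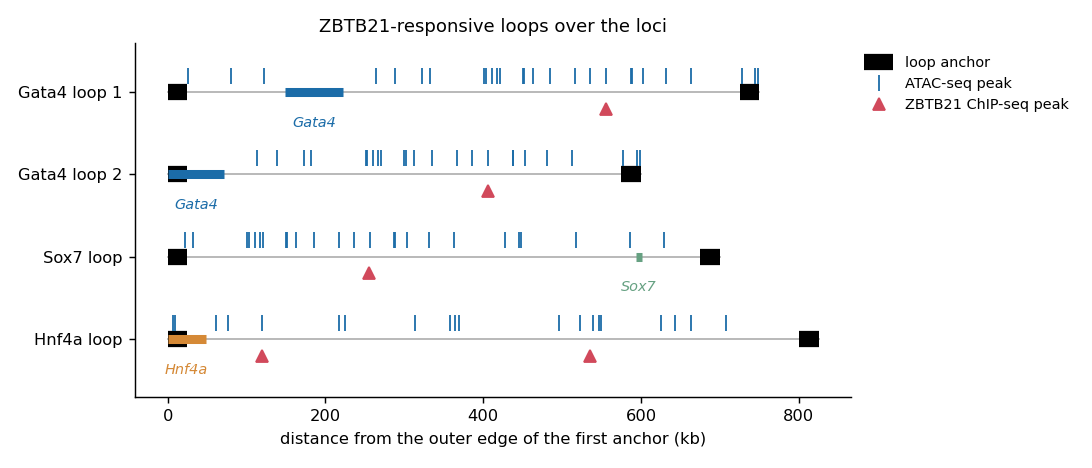
The 4 ZBTB21-responsive loops over Gata4, Sox7 and Hnf4a, drawn by distance in kb from the outer edge of the first anchor, with anchors in black, the part of each gene within the loop coloured, ATAC-seq peaks as blue ticks and ZBTB21 ChIP-seq peaks as red triangles. Gata4 and Hnf4a overlap the first anchor of a loop, Sox7 lies clear of both anchors, and the triangles of the 2 Gata4 loops and the Sox7 loop are the same peak.

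Other genes of the endoderm program were read in the same way. Of 12 further endoderm transcription factors, 2 (16.7%, Wilson 95% confidence interval 4.70 to 44.8%) had a promoter peak, Foxa3 and Sall4, of which Sall4 is also an ES cell factor. The 10 without one included Foxa1, Foxa2, Eomes, Mixl1, Gsc, Lhx1 and Hhex. A peak lay just beyond 1 kb at Foxa2 (1.40 kb), nearer than at any of the 5 genes. Of 15 signals and receptors, which include FGF and Nodal components, 4 (26.7%, 10.9 to 52.0%) had one, the ligands Nodal, Bmp4 and Lefty1 and the Nodal cofactor Foxh1. Fgf4, the ligand that promotes primitive endoderm, had none, with a peak 2.93 kb away.

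Of 15 products of primitive and visceral endoderm, 5 (33.3%, 15.2 to 58.3%) had a promoter peak, the receptor Pdgfra, the laminin chains Lama1 and Lamc1, the matrix protein Sparc and the apolipoprotein Apoe. Dab2, Col4a1, Col4a2, Afp and Ttr were among the 10 without one. Of 6 paralogs of the 5 genes, 1 (16.7%, 3.01 to 56.4%) had one, Gata3, with a peak 0.771 kb from a TSS, and Gata2 had no peak in its locus. The paralogs were listed by homology and include genes of other lineages. The 4 lists together had 12 of 48 (25%, 14.9 to 38.8%), and the 3 endoderm lists without the paralogs had 11 of 42, with both intervals including the 29.9% over all genes. The 4 lists' median density was 3.52 peaks per 100 kb, beside 1.5 for the 5 genes and 2.59 for all genes.

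**Figure D5:**
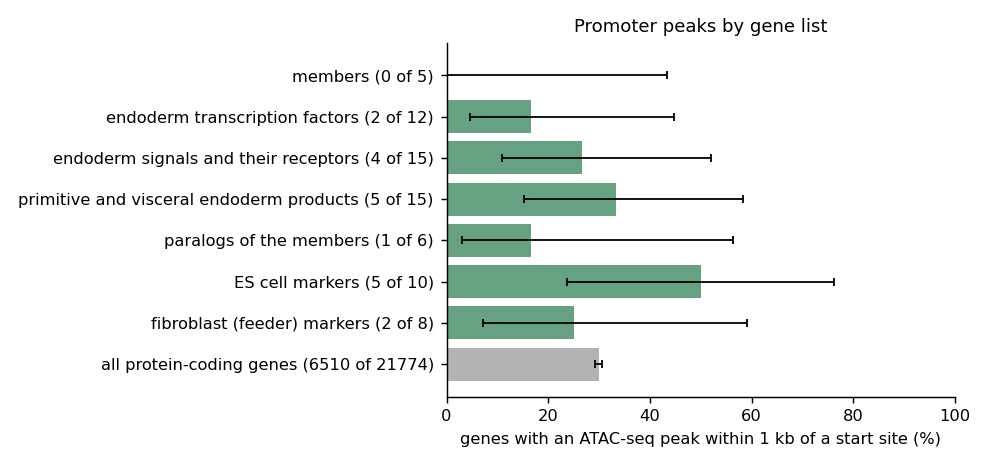
Percentage of genes with a promoter peak (at most 1 kb from a start site), for the 5 genes (members), the 3 endoderm lists, their paralogs, ES cell and fibroblast markers and all protein-coding genes, with Wilson 95% confidence intervals as bars. The 5 genes stand at 0 with an interval up to 43.4%, which overlaps those of all lists and reaches past the 29.9% of all genes.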

How the data were processed

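ATAC-seq peaks of untreated V6.5 mESCs came from 1 list covering both replicates. The authors deposited coordinates and a score per peak, and no strand. The submitters' processing notes name cutadapt 2.6, Bowtie2 2.3.5.1 and MACS2 2.1.1 and the build mm10. The peak calling of ATAC-seq, any shift for Tn5 and the meaning of the score are not given in the sources used here. The lowest score equals the scaled score of an IDR of 0.05, and scores were used only within the list. Peaks, ZBTB21 ChIP-seq peaks and loops (both from the study's supplement) were assigned to RefSeq genes (GRCm38.p6) by an overlap of at least 1 bp, loops from outer to outer anchor edge. No peak on an assembled chromosome ended beyond it (0 of 41000).

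The 6 motifs, of GATA, SOX, OCT4, ESRRB, KLF and STAT3, are spelled out beside their counts, were read on both strands and can overlap each other. The genes and lists were chosen with earlier results of these data known. The text names all 5 genes, their nearest, widest and highest-scoring peaks, neighbours with a TSS in a locus and genes of the lists. The remaining peaks of each locus were named after their values were seen. Alternatives were other TSS distances, flanks, loop edges and sequence lengths, curated TSSs, peak midpoints, merged peaks and a stricter score. Counting was tested on simulated data (2440 and 202 checks, 0 wrong). Intervals are Wilson 95% and treat the genes of a list as independent draws, although the genes were chosen by name. Python 3.11.15, numpy 2.4.6, pandas 2.3.3, scipy 1.17.1 and matplotlib 3.10.9 were used.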

Additional observations from a re-analysis of the deposited data

How the results depend on the processing

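The count of promoter peaks at the 5 genes was 0 under each of 6 alternatives, which moved the share over all genes from 29.9% to between 19.4% (scores above the median) and 41.0% (TSS within 5 kb). The 3 genes overlapping responsive loops were also 3 under each of 3 loop rules. Over all genes that share moved from 15.9% to between 14.8% (inner edge of anchors) and 18.2% (gene span plus 50 kb). The 16 peaks became 2 without flanks, 7 with flanks of 25 kb and 6 with scores above the median, and loci with a peak fell from 5 to 1, 3 and 2. The share of all genes with a peak in the locus fell from 81.9% to 49.6%, 75.2% and 72.3%, respectively. The 0 ZBTB21 peaks became 1, at Hnf4a, with flanks of 100 kb and of 250 kb, where 31.1% and 47.7% of all genes had one. The 12 of 48 genes of the 4 lists (endoderm genes and paralogs) with a promoter peak became 5 of 48 with scores above the median, where 19.4% of all genes had one. Of single values, ES cell markers with a promoter peak rose from 5 to 8 with a TSS within 2.5 kb, where 34.9% of all genes had one. The ESRRB match at Hnf4a was lost in 200 bases (1 to 0), and a SOX match appeared when whole peaks were read (0 to 1). Each of these counts was taken again with a changed distance, flank, sequence length or score limit. No paired analysis was possible because the replicates share 1 peak list and no result comes from a test. The list gives neither the depth nor values per replicate, which limits every count here.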
